A study of Caenorhabditis elegans with 2 samples.

Results

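The cytosolic ribosomal protein genes were examined here as targets of the zinc finger protein LIN-13 in Caenorhabditis elegans embryos. Members were the protein-coding genes of the WBcel235 annotation whose name is rpl- or rps- followed by a number. This gave 78 of 19973 protein-coding genes, of which 47 are named for the large subunit (rpl) and 31 for the small subunit (rps). Large and small subunit refer below to these names, and whether every product is part of the finished ribosome was not checked. A gene was counted as having a peak when a summit was no more than 1000 bp before or 200 bp after any of its annotated transcription start sites (TSSs). The name rule uses no measured value, but the gene family was chosen with earlier results of these data known, so its shares are given as a description.

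The data came from chromatin immunoprecipitation and sequencing (ChIP-seq), which maps where a protein is associated with DNA. The 2 samples were biological replicates of 1 group, whole animals of strain OP51 at mixed embryonic stages, with males and females pooled. OP51 carries the mutation unc-119(ed3) on chromosome III and the transgene wgIs51, which expresses LIN-13 fused to eGFP. The labels describe the target as eGFP-lin-13 but give lin-13 as the antibody, so recovery of untagged LIN-13 cannot be told apart from that of the fusion. The labels name a control experiment, which was not analysed here, and do not name the promoter of the transgene. There was no second condition to compare.

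Each ribosome is built from ribosomal RNA and one copy of most of these proteins, and their genes are among the most strongly transcribed in growing cells. Their products are needed in matched amounts, and in the nematode some of these genes are transcribed from operons, in which closely spaced genes on one strand share a promoter. LIN-13 belongs to the synthetic multivulva class B group of chromatin proteins, which act with the heterochromatin protein HPL-2 and restrain germline and vulval genes.

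The authors deposited 4 ranked lists of regions in build ce11, which is the same assembly as WBcel235. Each replicate list and the list pooled over both replicates held 30000 regions, and the final list held 1534 peaks selected by the irreproducible discovery rate (IDR), which weighs how well ranks recur between replicates. The IDR peaks were the first 1534 regions of the pooled list. Rank 1 is the region of highest peak signal, which is the authors' own value and is on a different scale in each list. Without read counts in the lists, the depth of the samples is unknown, and intervals below are exact binomial (95%) intervals over genes or peaks only.

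Of the 78 ribosomal protein genes, 66 (84.6%, interval 74.7 to 91.8) had an IDR peak in the window, against 8.15% of all protein-coding genes. When each peak was given only to the gene of its nearest protein-coding TSS, 38 members (48.7%) had one, against 7.25%. That count used no window, so the TSS could lie at any distance from the summit. In the window, the share was 80.9% for the large subunit (38 of 47 genes) and 90.3% for the small subunit (28 of 31), with intervals of 66.7 to 90.9 and 74.2 to 98.0 that overlap. No member had more than 1 IDR peak. The 66 genes were served by 63 distinct peaks. On chromosome I, 21 of 23 members had a peak, as did 16 of 18 on III and 16 of 17 on IV. The shares were 6 of 10 on chromosome II, 6 of 8 on V and 1 of 2 on X.

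Many of the first places of the list were at ribosomal protein genes. Their peaks took 6 of the first 10 IDR ranks, 13 of the first 100 and 49 of the first 500, and only 5 of the 63 came after rank 767, the midpoint of the list. Per gene, the IDR rank had a lowest value of 1, a median of 300 and a highest value of 1298, while the median was 696.5 for the 1562 other genes with a peak. The median signal was 77.0 against 52.0. Medians of the rank were 294.5 for the large and 334.5 for the small subunit.

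The strongest sites are shown first because they share a short word. In the lines below, each stretch is 101 bases centred on the IDR summit, read 5′ to 3′ on the strand of the ribosomal protein gene, and capitals mark the 7-base word AAGTGTA or its reverse complement TACACTT. All were read from the ce11 genome and lie outside annotated exons of protein-coding genes. The rps-1 stretch overlaps an exon of a noncoding gene.
rpl-3, chrIII:3867525-3867625, plus strand: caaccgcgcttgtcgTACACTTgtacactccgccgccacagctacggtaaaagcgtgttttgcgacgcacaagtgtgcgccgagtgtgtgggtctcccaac
rpl-15, chrIV:654878-654978, minus strand: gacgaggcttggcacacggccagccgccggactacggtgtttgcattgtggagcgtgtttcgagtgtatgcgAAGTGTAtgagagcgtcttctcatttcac
rpl-20, chrIV:4750015-4750115, minus strand: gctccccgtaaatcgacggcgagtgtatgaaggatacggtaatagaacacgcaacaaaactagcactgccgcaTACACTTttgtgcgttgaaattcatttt
rps-1, chrIII:4475606-4475706, plus strand: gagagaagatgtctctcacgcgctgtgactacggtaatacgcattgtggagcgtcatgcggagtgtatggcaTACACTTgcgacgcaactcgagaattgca
rpl-35, chrIII:7854637-7854737, plus strand: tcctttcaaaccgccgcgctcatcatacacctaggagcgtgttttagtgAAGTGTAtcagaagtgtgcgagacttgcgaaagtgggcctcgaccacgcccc

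These are 5 of the 6 ribosomal protein peaks among the first 10 ranks, and the remaining one, at rps-19, did not hold the word. AAGTGTA was noticed in these sequences after the values had been seen, so its counts are a description and carry no test. Searched on both strands within 100 bp of the summit, it was in 5 of the 13 ribosomal protein peaks of the first 100 ranks and in 1 of the 50 later ones, at rpl-38. Among other peaks in coding windows it was in 6 of 80 (7.50%) of the first 100 ranks and in 2.37% of the later ones. It was also in 7.94% of the stretches of 500 bp upstream of all protein-coding genes.

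Large subunit genes led the list. The peak of rpl-3, whose product lies close to the peptidyl transferase centre, ranked 1 in both replicates with a pooled signal of 487.5. The peak of rpl-15 had IDR rank 2 and ranked 2 in replicate 1 and 8 in replicate 2. That of rpl-20 had IDR rank 4 and ranked 7 and 6. These 3 genes stood in the first 10 regions of both samples. The peak of rpl-35, with IDR rank 8, ranked 26 in replicate 1 and 3 in replicate 2, which is the widest ratio between replicates of any member with a peak (8.67).

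Other large subunit genes among the 20 strongest members were lower in both lists. The peak of rpl-22 (IDR rank 29) ranked 32 and 49 in replicates 1 and 2, and that of rpl-43 (rank 43) ranked 27 and 101. The peak of rpl-12 (rank 54), a gene for a protein at the base of the ribosomal stalk, ranked 67 and 59. For these 3 genes both replicates stayed within or close to the first 100 regions. The peak of rpl-31 (rank 114) ranked 222 and 98, that of rpl-23 (rank 115) 262 and 149, and that of rpl-11.2 (rank 122) 60 and 212. The peak of rpl-24.2 (rank 137) ranked 491 and 108. Either replicate could be the stronger one.

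Small subunit genes entered at rank 6. The peak of rps-1 ranked 3 in replicate 1 and 23 in replicate 2, and that of rps-19 (IDR rank 7) ranked 5 and 14. The peak of rps-12 (rank 19) ranked 11 and 38, and that of rps-28 (rank 21) ranked 19 and 26. All 4 were in the first 50 regions of both samples. The peak of rps-22 (rank 44) ranked 47 and 76, and that of rps-20 (rank 51) ranked 92 and 60. Farther down, the peak of rps-15 (rank 106) ranked 272 and 80, that of rps-24 (rank 142) ranked 239 and 114, and the peak shared by rps-10 and rpl-24.1 (rank 170) ranked 155 and 202.

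**Figure D1:**
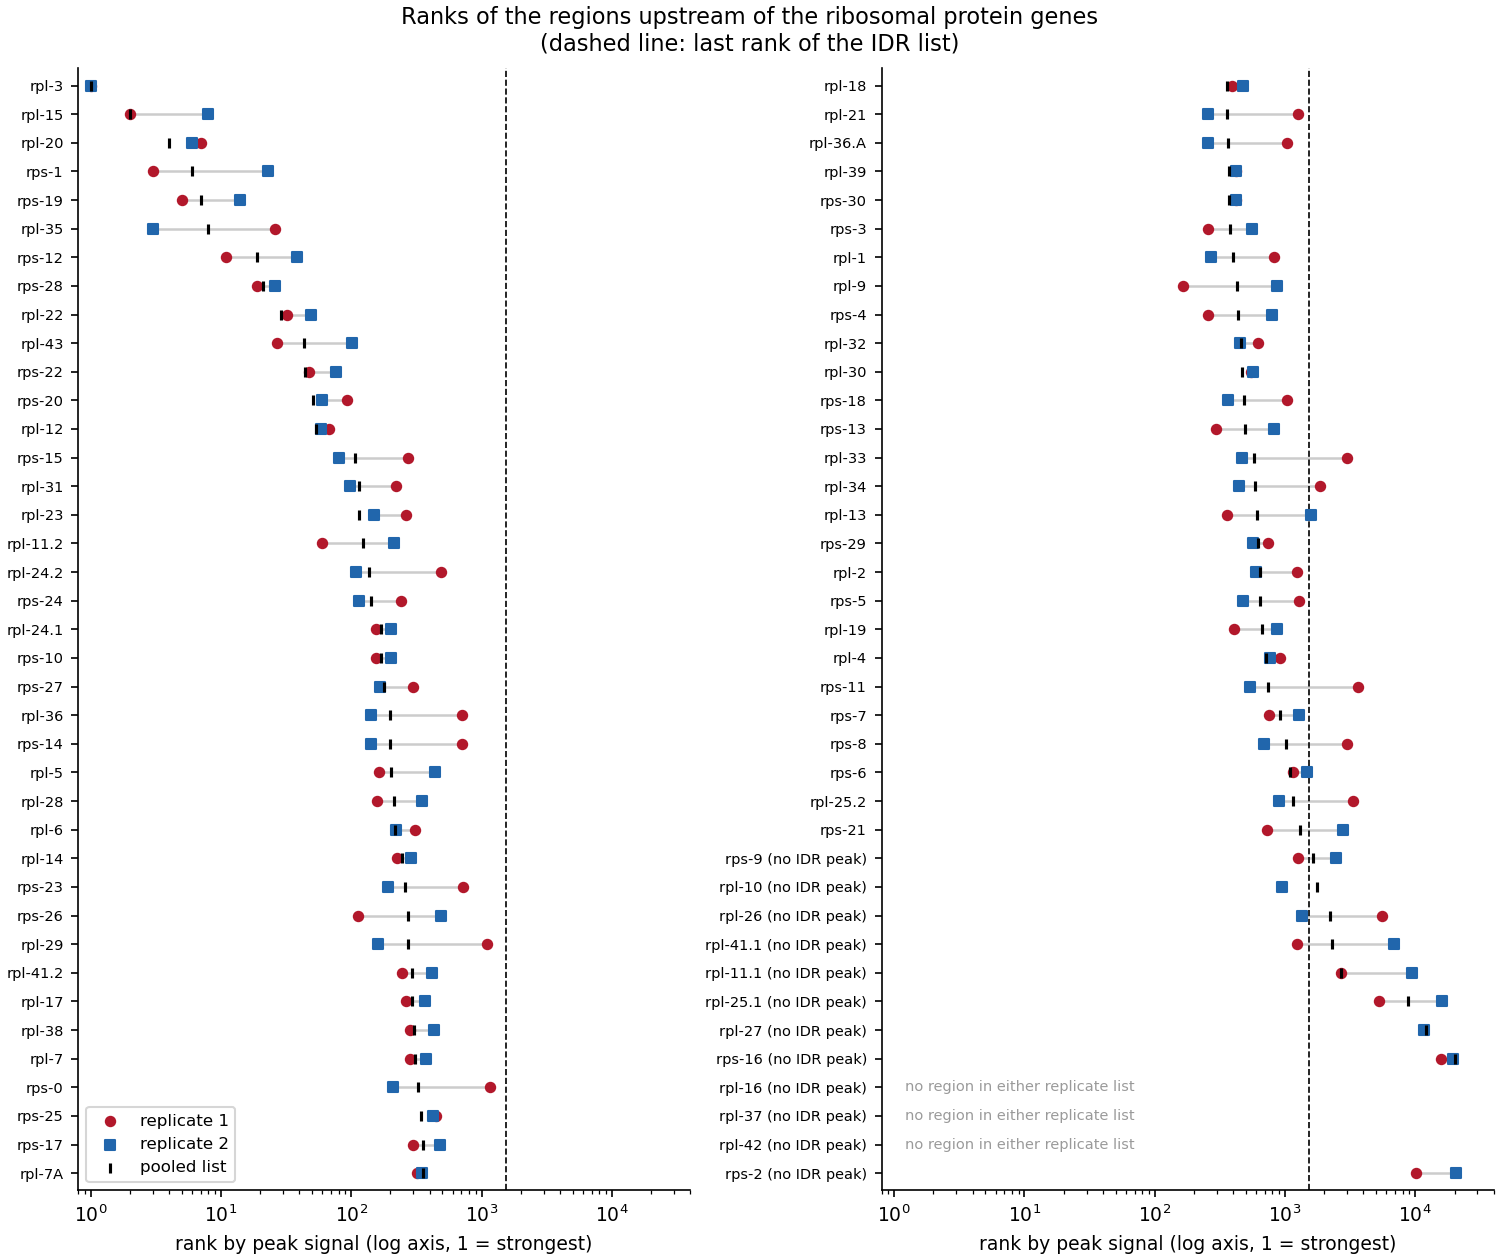
Rank of the best region in the window of each of the 78 ribosomal protein genes in replicate 1 (circles), replicate 2 (squares) and the pooled list (bars), on a log axis, ordered by pooled rank. The dashed line is rank 1534, the end of the IDR list, and the 12 genes without an IDR peak are at the lower right, 3 of them with no region in either replicate list.

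Each replicate list on its own also placed these genes high. In replicate 1, 63 of the 78 genes had a summit among the first 1534 regions, against 7.94% of all protein-coding genes, and in replicate 2 the number was 66, against 7.27%. Both replicates placed 59 (75.6%, interval 64.6 to 84.7) in their first 1534 regions, against 5.02%. Over the full lists, 73 members had a region in replicate 1 (background 42.8%), 75 in replicate 2 (40.7%), 73 in both (26.2%) and 74 in the pooled list (41.3%).

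For the 66 genes with an IDR peak, the rank in replicate 1 had a lowest value of 1, a median of 298.5 and a highest value of 3639, and in replicate 2 the values were 1, 349.5 and 2785. The medians for other genes with an IDR peak were 730 and 748. Of the 66, 59 (89.4%) were in the first 1534 regions of both replicates, against 59.6% of the other 1562 genes with a peak. None of the 66 was outside the first 1534 in both samples, against 60 of 1562 other genes, while 8 of all 78 members were, against 89.8% of all protein-coding genes. Neither replicate was stronger as a rule, since 32 of the 66 genes ranked higher in replicate 1.

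The ratio of the larger to the smaller replicate rank had a median of 2.19 and did not pass 10 for any of the 66 genes. It passed 10 for 149 of the 1537 other genes with an IDR peak and a region in both replicates, whose median ratio was 2.37. The median IDR rank was 300 for members and 696.5 for other genes, and no comparison between replicates was matched by rank. The best region of a gene need not be the same site in both replicates. The 7 members with a peak that fell outside the first 1534 regions of 1 replicate were rpl-33, rpl-34, rps-11, rps-8 and rpl-25.2 in replicate 1, and rpl-13 and rps-21 in replicate 2. The lowest of these was rps-11, at 3639 in replicate 1 and 543 in replicate 2. Summits also coincided between samples, with a median separation of 12.5 bp and 61 of 66 (92.4%) within 50 bp, against 19 bp and 81.3% for other genes. The widest separation was 216 bp, at rpl-25.2.

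**Figure D2:**
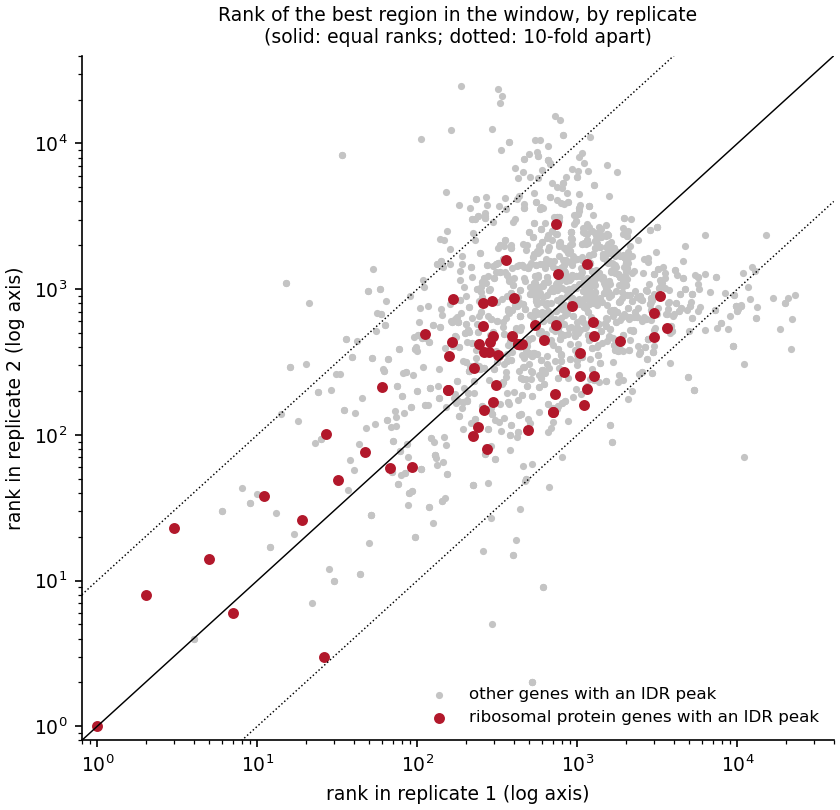
Rank of the best region in the window in replicate 1 (x) and replicate 2 (y), both on log axes, for the 66 ribosomal protein genes with an IDR peak and for other genes with one. The ribosomal protein genes lie between the dotted lines of a 10-fold difference, with rpl-3 at rank 1 in both.

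Ribosomal protein summits lay mostly 200 to 450 bp upstream of the start site. The summit was at a median of 299 bp upstream of the nearest TSS of the member (quartiles 256 and 375 bp), and 54 of 66 genes (81.8%) had it over 200 and up to 450 bp upstream. Only 33.0% of the other genes with a peak had it there. For those genes the median was 223.5 bp, and 41.5% had the summit over 0 and up to 200 bp upstream, against 8 of 66 ribosomal protein genes (12.1%). The edges of these bands were not planned and lie around the quartiles of the members, so the shares are a description only. No ribosomal protein summit was downstream of the nearest TSS of its gene, but that of rpl-19 was 359 bp downstream of the gene's most upstream TSS and upstream only of an internal one. Annotated starts in the nematode are often sites of trans-splicing and not of initiation, and which of these starts are so was not examined.

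The 8 genes with a closer summit included rpl-12 at 22 bp, the shortest distance, rpl-7A at 96 bp, rps-22 at 115 bp and rps-12 at 171 bp. The longest was 747 bp, at rpl-43, followed by 616 bp at rps-18 and 600 bp at rps-27. At rpl-43 and rps-27 the start of a divergent gene lay nearer to the summit, Y48B6A.1 at 174 bp and picd-1 at 148 bp. At rps-18 the nearest protein-coding start was also that of a divergent gene, sec-61.A. That gene lies 414 bp from the start of rps-18, so the summit at 616 bp is inside sec-61.A. The large and small subunits had similar medians, 304.5 and 293 bp. Of the 63 summits, 50 (79.4%) were intergenic, close to the 77.5% of the 1091 other peaks in coding windows. An exon of a noncoding gene held 10 (15.9%, against 8.34%) and an intron held 2 (3.17%, against 7.88%). The remaining 1, in the window of rps-18, lay in an annotated 5′ UTR (1.59%, against 4.49%). The introns were at rpl-24.2, whose start lies inside the gene C03D6.1, and at rpl-19.

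**Figure D3:**
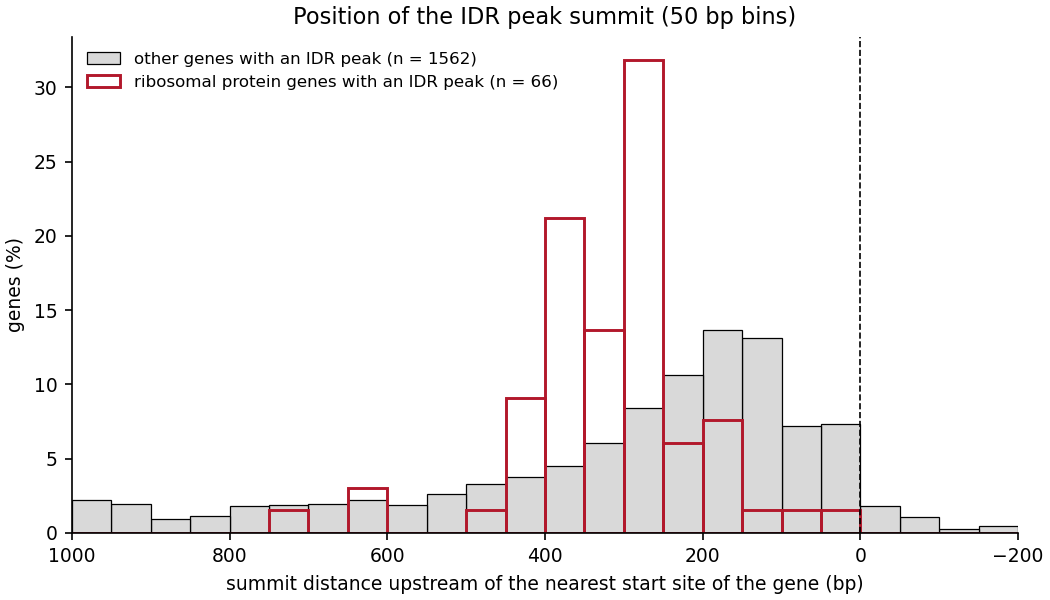
Distance from the IDR summit to the nearest start site of the gene, in 50 bp bins, as percent of 66 ribosomal protein genes (red outline) and of 1562 other genes (grey). Zero is the start site and positive values are upstream; the ribosomal protein genes are concentrated over 200 and up to 450 bp upstream (81.8%), and the other genes nearer to the start.

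Many ribosomal protein peaks were in promoters shared with another gene. Of the 63 peaks, 42 (66.7%) lay in the windows of at least 2 protein-coding genes, against 437 of 1091 other peaks in coding windows (40.1%). With a window of 500 bp upstream the shares were 55.0% (33 of 60) and 32.3%. In 39 (61.9%) the genes were on both strands, against 37.9%, and in 3 they were on the same strand, at rps-28, rpl-23 and rpl-29. The other 21 peaks were in the window of 1 member alone, and these include rpl-3 and rpl-35. The nearest protein-coding TSS was that of a member in 37 peaks and of another gene in 26. The list alone cannot say to which gene of such a pair a peak belongs. A peak in several windows has more chances to be picked through a member, so these shares per peak are not fully alike. Counted per gene, 46 of the 66 members with a peak had their upstream neighbour on the other strand. So did 1117 of all 1628 protein-coding genes with a peak, which is nearly the same share.

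In 3 peaks a pair of ribosomal protein genes shared the site. The genes rpl-24.1 and rps-10 diverge on chromosome I around a summit 243 bp from the former and 367 bp from the latter. On chromosome III, rpl-36 and rps-14 shared the peak of IDR rank 197, with the summit 392 and 271 bp upstream, which ranked 707 in replicate 1 and 143 in replicate 2. On chromosome V, rpl-39 and rps-30, which encodes a ribosomal protein made as a fusion with a ubiquitin-like protein, shared the peak of rank 369, at 247 and 252 bp. That peak ranked 423 and 418, almost the same place in both samples. Each of the 3 pairs joined a large and a small subunit gene.

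The partners at the other divergent peaks covered several processes. Some act on translation or the ribosome: ifet-1, which encodes a repressor that binds the cap-binding factor eIF4E, with rps-1 (506 bp), pab-1, which encodes the poly(A)-binding protein, with rpl-30 (20 bp), lpd-7, the pescadillo homolog of ribosome assembly, with rpl-9 (254 bp), and mrpl-49 of the mitochondrial ribosome with rpl-28 (169 bp). Each distance is from the summit to the partner's start. Others act elsewhere, among them lin-54, the DNA-binding subunit of the DREAM complex, with rpl-12 (371 bp), the securin gene ify-1 with rpl-22 (187 bp), the kinetochore gene ska-3 with rps-12 (122 bp) and nuo-1 of respiratory complex I with rpl-36.A (286 bp). The translocon gene sec-61.A was paired with rps-18. These partners were chosen for naming after the data had been seen.

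No IDR peak was found at 12 members, 9 of the large subunit (rpl-10, rpl-11.1, rpl-16, rpl-25.1, rpl-26, rpl-27, rpl-37, rpl-41.1 and rpl-42) and 3 of the small subunit (rps-2, rps-9 and rps-16). They fell into genes just below the threshold and genes far below it or without any region. The gene nearest to the threshold on its upper side was rps-21, with IDR rank 1298 and a signal of 36.5, at rank 733 in replicate 1 and 2785 in replicate 2.

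Of the 12, 5 had a region at pooled ranks 1646 to 2710, with the summit 142 to 409 bp upstream. The region of rps-9 had pooled rank 1646, a summit 243 bp upstream and ranks of 1256 and 2482 in replicates 1 and 2. The gene rpl-10 followed at pooled rank 1753, 409 bp upstream, with rank 949 in replicate 2 and no region in the list of replicate 1. At rpl-26 the pooled rank was 2206, the distance 269 bp and the replicate ranks 5584 and 1347. For all 3, at least 1 replicate alone placed the gene in its first 1534 regions, and all lie on chromosome II.

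The gene rpl-41.1 had pooled rank 2289 at 142 bp and ranked 1230 and 6863, with replicate summits 461 bp apart. Its near copy rpl-41.2 lies 699 bp downstream on the same strand and had an IDR peak of rank 294, at 255 bp, which ranked 244 and 420. Reads from sequence shared by near copies may be assigned to either, and the rule for this is not given in the sources used here. With pooled rank 2710 at 255 bp, the gene rpl-11.1 ranked 2708 and 9453, while its paralog rpl-11.2 ranked 60 and 212. Of the paralogs rpl-25.1 and rpl-25.2, the latter had a peak of IDR rank 1154 and the former had none, with pooled rank 8818 at 716 bp and replicate ranks of 5217 and 15901. In each of these 3 pairs, the copy numbered 2 had the peak. Both rpl-24.1 and rpl-24.2 had one, and whether they are copies of each other was not examined.

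The remaining genes were lower or not listed. No region in any of the lists lay in the windows of rpl-16, rpl-37 and rpl-42. The gene rps-2 had no pooled region and replicate ranks of 10179 and 20666. At rps-16 the pooled rank was 20241 and the replicate ranks were 15770 and 19542, with summits 900 bp apart. The gene rpl-27 had pooled rank 12183, rank 11725 in replicate 2 and no region in replicate 1. At such ranks the lists also hold regions at 41.3% of all protein-coding genes.

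Presence of a peak differed with the arrangement of the upstream neighbour, a grouping made after the data had been seen. Where the upstream gene was on the other strand, 46 of 52 members had an IDR peak (88.5%), against 13.3% of all protein-coding genes so arranged. Where it was on the same strand and over 500 bp away, 16 of 16 did, against 3.62%. Where it was on the same strand and up to 500 bp away, 3 of 8 members had a peak (37.5%, interval 8.52 to 75.5), against 5.38%. Of the 2 members whose start lies inside another gene, rpl-24.2 had a peak and rpl-37, inside pitp-1, had none.

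**Figure D4:**
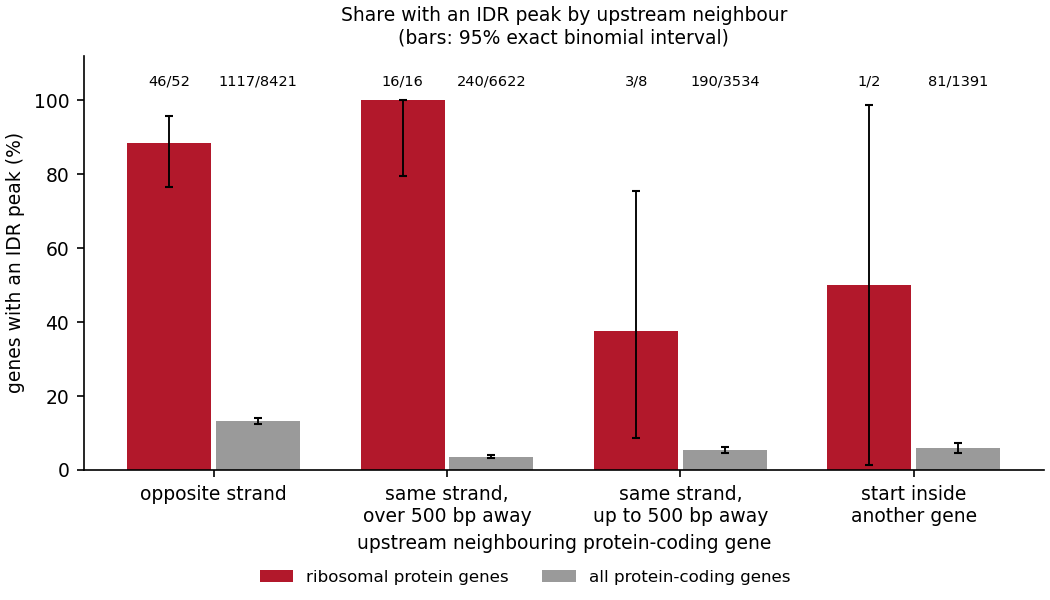
Percent of genes with an IDR peak by the strand and distance of the upstream neighbouring protein-coding gene, for ribosomal protein genes (red) and all protein-coding genes (grey), with exact binomial intervals (95%) and counts above the bars. Of the ribosomal protein genes, 16 of 16 with a neighbour on the same strand over 500 bp away had a peak, against 3 of 8 with a closer one.

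Among the members with a close upstream neighbour on the same strand, 4 started 97 to 119 bp behind it, and none of the 4 had a peak of its own. In all 4, the upstream gene had an IDR peak in its own window. The gene lias-1, for lipoic acid synthase, lies 105 bp before rpl-16 and had a peak of rank 210, its summit 292 bp upstream of lias-1. The gene fib-1, for the nucleolar protein fibrillarin, lies 109 bp before rps-16 and had a peak of rank 99, at 90 bp. The gene glit-1 lies 97 bp before rpl-25.1 and had a peak of rank 111, at 210 bp, and C53H9.2 lies 119 bp before rpl-27 and had one of rank 1289, at 211 bp.

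Across the genome, of 1805 protein-coding genes with no peak of their own and a same-strand neighbour up to 200 bp upstream, 335 (18.6%) had an upstream neighbour with an IDR peak. Up to 500 bp the count was 4 of 5 members, against 13.8% of such genes, since C49H3.12, upstream of rps-2, had no IDR peak. Operons are not annotated in the files used here, so whether these 4 members share a transcript with the upstream gene was not tested. The peak at fib-1 lay also in the window of mut-15, that at glit-1 in the window of dnj-14, and that at C53H9.2 in the window of C53H9.3. The other members with a close neighbour were farther from it. The genes rpl-19 (364 bp), rps-7 (478 bp) and rps-17 (480 bp) had a peak of their own, and rps-2 (356 bp) had none.

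The remaining peakless gene far from a neighbour was rpl-42, whose upstream gene unc-53 starts 3256 bp away on the other strand. The nearest IDR summit to it, 4838 bp downstream, was that of rpl-36.A and nuo-1.

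Several ribosomal protein genes contain small nucleolar RNAs (snoRNAs), which guide modification of ribosomal RNA. Of the 66 members with an IDR peak, 12 (18.2%, interval 9.76 to 29.6) contain an annotated snoRNA gene, against 2.94% of the other genes with a peak and 0.961% of all protein-coding genes. Of the 12 members without a peak, 1 does. None of the 78 contains a tRNA gene (interval up to 4.62%), and 1.14% of all protein-coding genes do.

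Base composition at the summit was close to that of other peaks. The median GC content within 100 bp of the summit was 42.3% at ribosomal protein peaks and 42.8% at other peaks in coding windows, and within 50 bp it was 50.5% and 49.5%. Within 250 bp it was 33.7% against 36.9%. Motifs that were listed without reference to these peaks were mostly no more frequent there. E2F-like words (TTCCCGC or TTCGCGC and their variants TTGCCGC or TTGGCGC) were within 100 bp of the summit in 12.7% of ribosomal protein peaks and 22.7% of other peaks. CCACCC or CCGCCC was in 9.52% against 17.0%, CTGCGTC in 6.35% against 14.0%, a run of 8 T in 11.1% against 13.6%, and CGCGAC in 15.9% against 11.9%. GAGAGAGA was in 0 of 63 ribosomal protein peaks (interval up to 5.69%) and in 6.32% of the others.

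Longer words were shared by many of the ribosomal protein peaks. All words of 8 bases within 100 bp of the summits were ranked by the difference between their share in these 63 peaks and in 1091 other peaks, on both strands, and the first 8 that share no run of 5 bases were kept. They were therefore chosen for this difference, which is given as a description with no test. GCGAGACC was in 21 peaks (33.3%, against 6.23% of other peaks), AAAAAGAA in 20 (31.7%, against 8.80%), GGCCTAAA in 17 (27.0%, against 0.917%) and AAAGGCGC in 16 (25.4%, against 4.40%). AAACGAGT was in 15 (23.8%, against 2.02%), TACGGTAA in 14 (22.2%, against 2.47%), CGATTTAC in 14 (22.2%, against 3.12%) and ATACTCAG in 12 (19.0%, against 0.733%).

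The words differed in place and direction. GCGAGACC lay a median of 11.5 bp from the summit, and in peaks of 1 member it read as GGTCTCGC on that gene's strand in 16 of 20 matches. TACGGTAA (19.5 bp), AAACGAGT (20.5 bp), AAAGGCGC (22 bp) and ATACTCAG (22.5 bp) were also near the summit. GGCCTAAA was farther from it, at 66.5 bp, and read in that direction in 14 of 18 matches. AAAAAGAA was farthest, at 81 bp, and read as TTCTTTTT in 16 of 18. No match of AAAAAGAA and 3 of the 18 matches of GGCCTAAA were within 50 bp of the summit.

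In the next lines capitals mark any of the 8 words, and the genes are shown because they carry GGTCTCGC with a second word near it. The last line is the peak shared by rpl-39 and rps-30 on the strand of rpl-39, which overlaps an exon of a noncoding gene. All are 101 bases around the summit in ce11, 5′ to 3′ on the gene's strand.
rpl-6, chrIII:7208037-7208137, plus strand: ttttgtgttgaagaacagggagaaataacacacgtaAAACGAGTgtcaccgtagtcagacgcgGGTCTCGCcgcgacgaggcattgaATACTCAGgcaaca
rps-25, chrIV:5947892-5947992, minus strand: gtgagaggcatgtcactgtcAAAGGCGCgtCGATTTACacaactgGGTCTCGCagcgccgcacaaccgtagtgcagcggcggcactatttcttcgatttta
rpl-18, chrIV:13777649-13777749, plus strand: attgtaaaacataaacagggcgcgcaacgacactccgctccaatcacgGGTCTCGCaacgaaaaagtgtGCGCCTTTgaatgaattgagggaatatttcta
rps-11, chrIV:11602229-11602329, plus strand: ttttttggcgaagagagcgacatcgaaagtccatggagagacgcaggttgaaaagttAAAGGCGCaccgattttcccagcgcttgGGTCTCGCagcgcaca
rps-21, chrIII:7189888-7189988, minus strand: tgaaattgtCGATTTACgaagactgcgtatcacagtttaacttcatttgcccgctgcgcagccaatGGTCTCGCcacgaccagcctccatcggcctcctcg
rpl-39 and rps-30, chrV:7776276-7776376, minus strand: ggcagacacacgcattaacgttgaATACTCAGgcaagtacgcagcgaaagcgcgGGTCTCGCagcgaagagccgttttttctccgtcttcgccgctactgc

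Counts of these words per peak follow from how the words were picked and are given as a description. Of the 63 ribosomal protein peaks, 28 held 2 of the 8 words within 100 bp of the summit, 12 held 3 and 6 held 4, so 46 held at least 2. No word was found in 4, at rps-19, rpl-35, rpl-12 and rps-15, while 77.3% of the other peaks held none. The median was 2 words in the ribosomal protein peaks of the first 100 ranks, 2 at ranks 101 to 500 and 3 after rank 500. At least 2 were in 7 of 13 ribosomal protein peaks of the first 100 ranks, in 27 of 36 at ranks 101 to 500 and in 12 of 14 after rank 500. For the other peaks these shares were 3.75%, 5.82% and 4.31%.

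**Figure D5:**
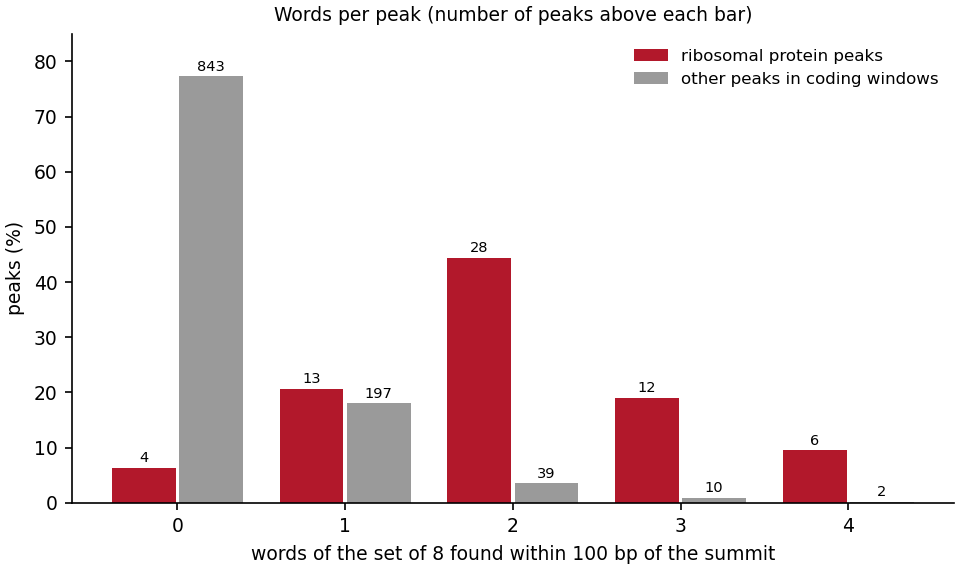
Number of the 8 words found within 100 bp of the summit (x) and percent of peaks (y), for 63 ribosomal protein peaks (red) and 1091 other peaks in coding windows (grey), with the number of peaks above each bar. The words were chosen on these peaks; 4 ribosomal protein peaks and 77.3% of other peaks held none.

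In the 500 bp upstream of the most upstream TSS, at least 2 words were found for 47 of the 66 members with a peak (71.2%), 2 of the 12 without one (16.7%), 10.6% of other genes with a peak and 4.33% of all protein-coding genes. The words were chosen at the peaks of the 66 members, so 71.2% follows from that choice and cannot be compared with 16.7%. The 12 genes without a peak had no part in the choice of words. GGCCTAAA was upstream of 4 of them, rpl-10, rpl-11.1, rpl-26 and rps-9, against 1.65% of all protein-coding genes, and these are 4 of the 5 with a region just below the threshold. The other 7 words were in 0 to 4 of the 12, with AAAAAGAA in 4, a word found upstream of 23.3% of all protein-coding genes. Among the peaks of the upstream neighbours described above, those at lias-1 and fib-1 held GCGAGACC, that at glit-1 held TACGGTAA, and that at C53H9.2 held GCGAGACC, GGCCTAAA, AAAGGCGC and CGATTTAC.

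One spaced arrangement recurred at the ribosomal protein peaks, with ACGAGT followed after 3 bases by ACCGTA, on either strand. It overlaps the words AAACGAGT and TACGGTAA and was likewise seen in these sequences before it was counted. It was within 100 bp of the summit in 14 of 63 ribosomal protein peaks (22.2%, interval 12.7 to 34.5) and in 11 of 1091 other peaks (1.01%). In the 500 bp upstream of all protein-coding genes it was found for 44 (0.220%), and for none of the 12 members without a peak. Either part alone was more common, with ACGAGT in 30.2% of ribosomal protein peaks and 8.25% of others, and ACCGTA in 50.8% and 12.7%.

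The 14 peaks were those of rpl-1, rpl-6, rpl-11.2, rpl-19, rpl-21, rpl-22, rpl-29, rpl-34, rps-7, rps-13, rps-18, rps-23, rps-29 and the pair rpl-24.1 and rps-10. Some are printed below to show the fixed spacing. Capitals mark the whole arrangement, in 101 bases around the summit (ce11, 5′ to 3′ on the gene's strand). At rps-23 it is on the opposite strand.
rpl-22, chrII:5055316-5055416, plus strand: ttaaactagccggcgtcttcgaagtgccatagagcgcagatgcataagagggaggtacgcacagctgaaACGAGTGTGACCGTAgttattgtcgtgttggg
rps-23, chrIV:12391284-12391384, minus strand: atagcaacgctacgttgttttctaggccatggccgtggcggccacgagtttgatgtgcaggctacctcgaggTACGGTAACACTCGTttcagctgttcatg
rpl-29, chrIV:13881899-13881999, plus strand: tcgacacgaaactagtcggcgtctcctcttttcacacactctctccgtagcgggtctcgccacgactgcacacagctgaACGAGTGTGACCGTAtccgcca
rpl-21, chrIII:8130493-8130593, minus strand: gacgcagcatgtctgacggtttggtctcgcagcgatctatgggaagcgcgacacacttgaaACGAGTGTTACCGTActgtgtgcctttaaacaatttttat
rpl-34, chrIV:12268513-12268613, plus strand: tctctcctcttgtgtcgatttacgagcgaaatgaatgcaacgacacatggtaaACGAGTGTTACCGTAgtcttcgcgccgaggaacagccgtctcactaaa
rps-29, chrIII:793764-793864, plus strand: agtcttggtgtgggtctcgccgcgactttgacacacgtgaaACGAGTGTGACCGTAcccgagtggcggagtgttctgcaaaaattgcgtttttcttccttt
These matches are descriptions of the sequence, and which protein binds them was not examined.

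Genes for other parts of the ribosome and of translation are given for comparison, from lists of gene names that were also drawn up with earlier results of these data known. The background is 8.15% of all protein-coding genes with an IDR peak. Of 6 genes whose products are part of the ribosome but whose names the rule leaves out, 3 had an IDR peak, ubq-2 (rank 365), ubl-1 (rank 629) and rla-0 (rank 882), while rla-1, rla-2 and rack-1 had none. All 6 elongation factor genes (eef-) had one. Of 18 ribosome biogenesis genes 11 had one, with the highest at fib-1 (rank 99) and nol-58 (rank 275), both for proteins of the box C/D snoRNA particles, and 7 had one among the upper 767 peaks. Of 70 mitochondrial ribosomal protein genes, 16 (22.9%) had one, or 10 among the upper 767 peaks. With those 767 peaks the share was 4.58% of all protein-coding genes and 78.2% of the cytosolic ribosomal protein genes. Over all IDR peaks the share was 84.6% for the cytosolic genes (interval 74.7 to 91.8), and the mitochondrial interval was 13.7 to 34.4. These intervals treat genes as independent, but mrpl-49 was counted through the peak of rpl-28. Among the biogenesis genes, lpd-7 was likewise counted through the peak of rpl-9. No test between the lists was made.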

How the data were processed

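ChIP-seq of LIN-13 was represented by 2 biological replicates in 1 group, numbered as in the labels. The deposited lists were narrowPeak regions with a peak signal per region (column 7), which served to order regions inside each list, and a −log10 q value (column 9 of the deposited lists), which was 3.51 for every IDR peak and was not used. Per the file headers, each replicate's list was made from that replicate and a control, and the IDR list from the replicate and pooled lists. The sources used here do not give the aligner, the peak caller or the IDR threshold.

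The ce11 lists were read with Python 3.11.15 (pandas 2.3.3, numpy 2.4.6, scipy 1.17.1, matplotlib 3.10.9). Genes and TSSs were those of Ensembl release 115 (WBcel235) on the 6 nuclear chromosomes, where noncoding transcripts of a protein-coding gene also gave TSSs. The best-ranked summit in the window gave a gene its rank, and the nearest TSS of the gene its distance. Window matching was tested on simulated data. Coordinates are counted from 1. Shares have exact Clopper-Pearson intervals (95%), which cover counts of genes or peaks and no error in the reads. No p-value was computed, since there was 1 group.

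Members and lists were chosen with earlier results of these data known. Genes were named by a rule: every member without a peak, the 20 of highest signal, those sharing a peak, those without a region in a replicate, and the extremes of distance. The words, the spaced arrangement, the neighbour classes, the snoRNA hosts and the partner genes were added after the data were seen. The edges of the distance bands were not part of the plan. Alternatives were other windows, TSS choices, thresholds, single replicates, numbers of leading regions and motif windows.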

Additional observations from a re-analysis of the deposited data

How the results depend on the processing

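The share of ribosomal protein genes with an IDR peak was between 78.2% and 87.2% with windows of 500 or 2000 bp upstream, the most upstream TSS, any overlap of the region, the upper 767 IDR peaks or 1 replicate alone. It was 48.7% (38 genes) when each peak was given only to the gene of its nearest protein-coding TSS. That setting had no window, and 7.25% of all protein-coding genes had a peak under it. The share in the leading regions of both replicates was 47.4% with 500 regions and 85.9% with 5000, against 1.84% and 9.79%. The median distance, 299 bp, was 295 bp and 304 bp with the 500 and 2000 bp windows, 301 bp with the most upstream TSS and 301 bp in those 767 peaks, and 298 to 299 bp from a single replicate. Peaks in the windows of at least 2 genes were 81.5% with the 2000 bp window, against 51.2% of other peaks, and 55.0% with the 500 bp window, against 32.3%. The median rank was 294 to 349.5 in a single replicate. Median GC content was 50.5% within 50 bp and 33.7% within 250 bp of the summit, and 42.3% to 42.8% in a single replicate. Among the 124 alternative values, 105 stayed close to the reported value and 19 moved away from it. Close meant inside the interval of a share, within a fixed ratio of a count, or within the spread of single replicates for a median. A change of direction was not tested. Median GC content was above that of other peaks within 50 bp (50.5% against 49.5%) and below it within 100 bp (42.3% against 42.8%). The words GGCCTAAA and AAAAAGAA were in 4.76% and 0% of ribosomal protein peaks within 50 bp, both chosen after seeing the data. No paired analysis was possible because both samples belong to 1 group. The lists hold no counts, so depth could not be set against any value and the control experiment was not analysed here.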
